A study of Oryza sativa with 4 samples.

Results

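The genes described here encode 9 steps or isoforms of carotenoid synthesis in rice. They are the phytoene synthase genes PSY1, PSY2 and PSY3, the desaturase genes PDS and ZDS, the carotene isomerase gene CRTISO, the lycopene cyclase genes LCYb and LCYe, and the zeaxanthin epoxidase gene ZEP. They were picked by locus identifier of the MSU rice annotation, by a rule that holds no measured value but was written with earlier results of these data known, and make up 9 of the 52795 loci and 11 of the 55078 non-control probes of the array. PSY1 and ZEP had 2 probes each and the other genes 1, and each probe was printed once. Transcript levels came from 4 one-colour Agilent arrays of total RNA from whole seedlings of Oryza sativa japonica cultivar Nipponbare, 14 days old and raised in soil pots in a greenhouse. The 2 groups were wild type (n = 2 arrays) and transgenic line 40 (n = 2 arrays), made in Nipponbare to overexpress LOC_Os02g43330, the class I homeodomain-leucine zipper gene HOX24. The promoter that drives the transgene is not given in the sources used here, and line 40 was the only transgenic line, so its differences cannot be told apart from effects of that 1 line. The series calls the replicates biological.

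Carotenoids are built in plastids from geranylgeranyl diphosphate. Phytoene synthase makes phytoene, desaturases and isomerases turn it into red lycopene, and the cyclases close its ends into beta rings or epsilon rings. The beta branch leads through beta-carotene and zeaxanthin to violaxanthin and neoxanthin, from which abscisic acid is cut, and the branch with 1 epsilon ring leads to lutein. In leaves, these pigments sit in the photosynthetic complexes, where they gather light and shed excess energy. Phytoene synthase is widely regarded as the step that sets the flow into the pathway. In cereals its isoforms are split by role, with PSY3 tied to roots and stress and the other isoforms to green tissue.

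A level is given throughout as log2 of the processed spot signal minus the 75th percentile of its array, so that 0 lies at that percentile, and a difference is line 40 minus wild type on this scale. Levels of different probes are not compared, as probes differ in brightness for reasons other than transcript abundance. The 75th percentile lay at signals of 367 to 488 on the 4 arrays. All arrays lay on 1 slide and share 1 scan. HOX24 itself was higher in line 40 by 7.20 (SE 0.16, limma adjusted p = 0.00105).

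No carotenoid synthesis gene passed the test, and every one of them differed by less than 2-fold. LCYb lay at 1.49-fold the wild type level, PSY1 at 1.37-fold for its brighter probe and LCYe at 1.35-fold, whereas PSY3, ZDS and CRTISO lay below the wild type. All 9 genes were measured well enough to be tested. With limma and Benjamini-Hochberg adjustment over 36902 loci at a threshold of 0.05, 0 of 9 were called in either direction, beside 2.07% of all tested loci (765 loci: 342 or 0.927% higher, 423 or 1.15% lower). Other processing shifts that split, with 241 higher and 152 lower loci after quantile normalization. At an unadjusted p under 0.05 there were 2 of 9, LCYb and LCYe, both higher, beside 24.8% of all tested loci in either direction and 10.1% higher. The count of calls therefore does not set the genes apart from the rest of the array. In simulated data the test called 0 of 50 loci with a log2 change of 0.5 and 0 of 50 with a change of 1. Few loci were changed there, at any brightness, so the adjustment was stricter than in the measured data. These rates therefore do not carry over to the carotenoid synthesis genes, and the measured data had a call at 1.12 (LOC_Os01g31690). With 2 arrays a group, the lack of calls among these genes does not show that their levels were unchanged. Their median difference was 0.15, with 6 genes above 0 and 3 below, beside a median of -0.06 over all tested loci, of which 43.8% lay above 0. That median of the carotenoid synthesis genes has no settled direction, since it was 0.020 after quantile normalization (all loci -0.018) and -0.069 after cyclic loess (all loci -0.022). The 95% intervals of all 9 differences lay within 2-fold of no change, as did those of 69.8% of all tested loci.

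**Figure D1:**
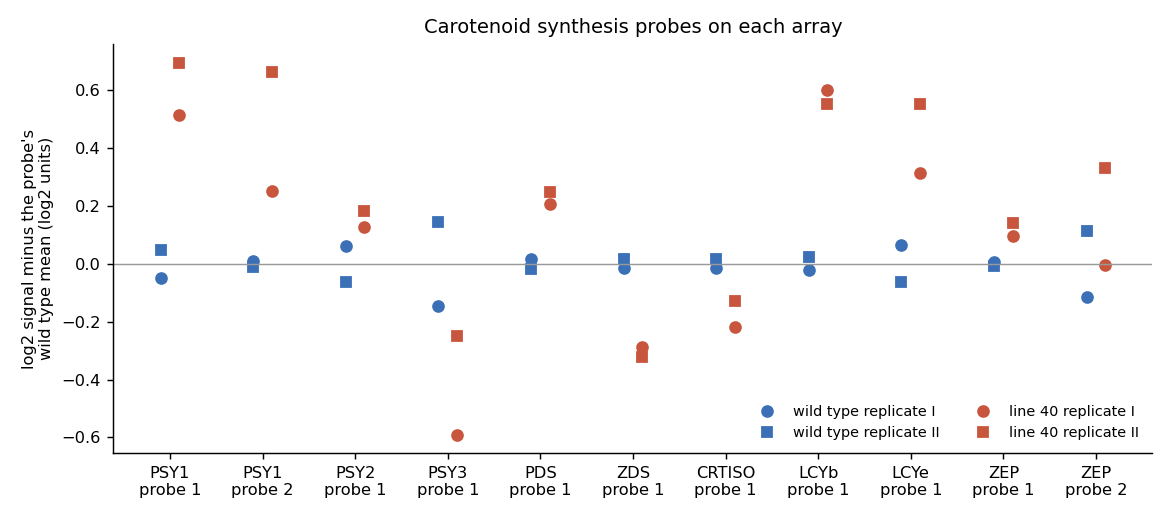
Log2 signal of each carotenoid synthesis probe on the 4 arrays, relative to that probe's mean on the wild type arrays (y axis, log2 units), with wild type in blue and line 40 in red, and circles and squares for replicates I and II. For PSY1, LCYb and LCYe both line 40 arrays lie clearly above both wild type arrays, ZDS and CRTISO lie below, and of the 11 probes only probe 2 of ZEP has groups that overlap.

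The replicates of most of these genes lay close together. The median SD between replicates was 0.02 in the wild type and 0.04 in line 40, against 0.16 and 0.11 over all tested loci. Spread fell with brightness: the median SD pooled over both groups was 0.35 in the dimmest decile of loci and 0.12 in the brightest. The brightest decile holds 6 of the 9 genes. PSY1 in line 40 (SD 0.29), LCYe in line 40 (0.17) and PSY3 in both groups (0.20 and 0.24) lay above the medians of all tested loci. For each of the 9 genes, judged by its brighter probe, both line 40 arrays lay on the same side of both wild type arrays, 6 above and 3 below. Such separation was found for 59.4% of all tested loci (25.2% above and 34.2% below), and for 62.6% of the brightest decile of them by mean signal, so it is common on these arrays. The SE of about 0.14 for most members comes largely from limma's estimate of the spread over all loci, to which the spread of each gene is drawn. When that estimate was allowed to follow signal brightness, LCYb passed (adjusted p = 0.0387) and the other 8 genes did not (adjusted p from 0.106 to 0.561), while 5.89% of all tested loci passed and 3.41% passed as higher.

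**Figure D2:**
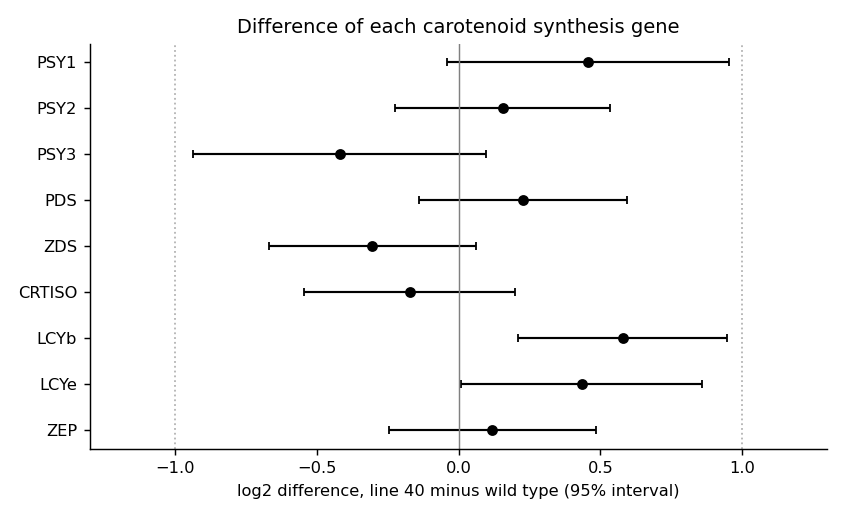
Difference of each carotenoid synthesis gene between line 40 and wild type (x axis, log2 units, dots) with its 95% interval from limma (bars). The dotted lines mark a 2-fold change. All 9 intervals lie between these lines, and those of LCYb and LCYe alone leave out 0, by 0.21 and 0.01 at their lower ends.

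The phytoene synthase genes, at the entry of the pathway, did not move alike. PSY1 (LOC_Os06g51290), whose product is an isoform tied to green tissue, had, for its brighter probe, processed signals of 11582 and 15206 in the wild type and of 15072 and 21369 in line 40. After scaling these were levels of 4.98 and 4.96 in the wild type and 5.22 and 5.64 in line 40. Both line 40 arrays were higher than both wild type arrays, but they lay further from each other than the wild type arrays did. The difference was 0.46 (SE 0.19, 95% interval -0.04 to 0.95, adjusted p = 0.226). The other PSY1 probe gave levels of 4.71 and 4.80 in the wild type and 5.27 and 5.45 in line 40, a difference of 0.61 with a 95% interval of 0.21 to 1.00 when every probe was fitted on its own (limma adjusted p = 0.112). Both probes thus lay higher in line 40, by amounts that differ by less than the SE. Without line 40 replicate II the difference of the brighter probe was 0.25, and without line 40 replicate I it was 0.66.

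PSY2 (LOC_Os12g43130), the second isoform of green tissue, lay close to the wild type. Its signals were 19407 and 23731 in the wild type and 22367 and 24768 in line 40. The levels were 5.73 and 5.60 against 5.79 and 5.85, groups that are apart by less than the gap between the wild type replicates. Its difference of 0.15 (SE 0.15, 95% interval -0.23 to 0.53, adjusted p = 0.551) was near the median of the brightest decile of loci, 0.13, to which PSY2 belongs. The sign turned to -0.20 after quantile normalization and to -0.07 after cyclic loess, so PSY2 has no settled direction.

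PSY3 (LOC_Os09g38320), the isoform tied in cereals to roots and to stress, was barely above background in these whole seedlings. Its signals were 11.2 and 18.3 in the wild type and 9.1 and 12.3 in line 40. It was well above background on both wild type arrays and on 1 of the 2 line 40 arrays, and it entered the test through the wild type arrays. The levels of -5.03 and -4.74 in the wild type and -5.47 and -5.13 in line 40 gave a difference of -0.42 (SE 0.20, 95% interval -0.94 to 0.10, adjusted p = 0.268). The dimmest decile of loci, where PSY3 lies, had a median difference of -0.49. After the normexp background correction the difference was -0.06, and after quantile normalization 0.020. A change of this gene was not detectable at this signal.

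Phytoene desaturase and zeta-carotene desaturase, which act one after the other on the way to lycopene, lay on opposite sides of the wild type. PDS (LOC_Os03g08570) had signals of 2068 and 2691 in the wild type and 2599 and 2849 in line 40. Its levels of 2.50 and 2.46 in the wild type and 2.69 and 2.73 in line 40 made a difference of 0.23 (SE 0.14, 95% interval -0.14 to 0.59, adjusted p = 0.371). Both line 40 arrays were higher, by more than the small gaps within each group.

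ZDS (LOC_Os07g10490) had signals of 292 and 398 in the wild type and 267 and 277 in line 40. Its levels were -0.33 and -0.29 in the wild type and -0.60 and -0.63 in line 40. The line 40 arrays lay below the wild type arrays and within 0.04 of each other, and the difference was -0.30 (SE 0.14, 95% interval -0.67 to 0.06, adjusted p = 0.259). It lay from -0.32 to -0.16 in 15 alternative settings, not all of which could turn its sign, and passed in none of them.

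The carotene isomerase gene CRTISO (LOC_Os11g36440), whose product turns the cis bonds left by the desaturases into the all-trans lycopene that the cyclases use, was slightly lower in line 40. The signals were 1757 and 2389 in the wild type and 1682 and 1906 in line 40, or levels of 2.26 and 2.29 against 2.06 and 2.15. The groups did not overlap, but the difference of -0.17 (SE 0.14, 95% interval -0.54 to 0.20, adjusted p = 0.495) was about as large as its SE. With median scaling it was -0.03.

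The lycopene cyclase genes stood at and near the top of the set. LCYb (LOC_Os02g09750), the lycopene beta-cyclase needed for both branches, had signals of 4463 and 6130 in the wild type and 7580 and 7803 in line 40. Its levels were 3.61 and 3.65 in the wild type and 4.23 and 4.18 in line 40. The groups were well apart and the replicates within 0.05 of each other, with means of 3.63 ± 0.03 and 4.21 ± 0.03 (SD, n = 2 arrays each). The LCYb difference was 0.58 (SE 0.14, 95% interval 0.21 to 0.94, limma adjusted p = 0.108), larger than that of 92.9% of tested loci of every brightness. Its own decile, the brightest, had a median difference of 0.13, and the rank of LCYb within that decile was not computed. The difference lay between 0.42 and 0.72 in 15 alternative settings, and it passed only with the spread following brightness (limma adjusted p = 0.0387).

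LCYe (LOC_Os01g39960), the lycopene epsilon-cyclase that opens the lutein branch, had signals of 2258 and 2750 in the wild type and 2957 and 3716 in line 40. The levels were 2.62 and 2.49 in the wild type and 2.87 and 3.11 in line 40. Both line 40 arrays were higher, with a wider gap between replicates than for LCYb, and the difference was 0.43 (SE 0.17, 95% interval 0.01 to 0.86, adjusted p = 0.196). The ratio of LCYb to LCYe, the pair at the branch point, differed between groups by 0.14 on the log2 scale, and its values in the 2 groups overlapped, so no shift between the branches was measured. Over the alternative settings this value lay between 0.00053 and 0.29.

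Zeaxanthin epoxidase, which turns zeaxanthin into violaxanthin and so feeds both the xanthophyll cycle and abscisic acid synthesis, was nearly level. For its brighter probe, ZEP (LOC_Os04g37619) had signals of 13880 and 18303 in the wild type and 16276 and 17859 in line 40, or levels of 5.24 and 5.23 against 5.33 and 5.38. The difference of 0.12 (SE 0.14, 95% interval -0.25 to 0.48, adjusted p = 0.636) was the smallest of the set and close to the median of the brightest decile of loci, 0.13. It turned to -0.22 after quantile normalization and to -0.090 after cyclic loess. The other probe was much dimmer, with signals of 55.0 and 86.0 in the wild type and 65.5 and 88.1 in line 40. Its groups overlapped, at a difference of 0.16 (limma adjusted p = 0.626).

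Ratios between 2 genes on the same array do not depend on a single scaling factor for that array. The ratio of PDS to ZDS was higher in line 40 by 0.53 on the log2 scale, with SDs between replicates of 0.05 in the wild type and 0.06 in line 40, and by 0.37 to 0.57 in the alternative settings. The ratio of LCYb to ZEP was higher by 0.46 (0.41 to 0.64) and that of PSY1 to PSY2 by 0.30 (0.12 to 0.48). The ratio of LCYb to ZDS, a pair chosen after the values were seen, was higher by 0.88 (0.67 to 0.89) with an SD of 0.01 in each group. In each of these 4 pairs both line 40 arrays lay above both wild type arrays. Each pair sets a member with a higher difference over one with a lower difference. The ratio of ZDS to CRTISO differed by -0.13, with both line 40 arrays below both wild type arrays. The share of such separation over other gene pairs was not computed, and single loci were apart in 59.4% of cases. The ratios are descriptions and were not tested.

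**Figure D3:**
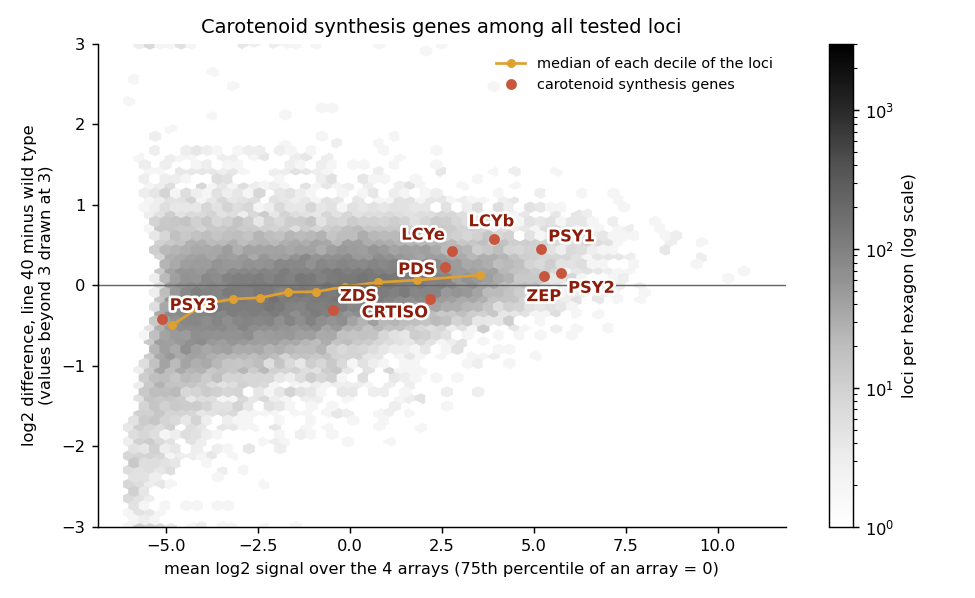
Difference between line 40 and wild type (y axis, log2 units) against the mean log2 signal over the 4 arrays (x axis) for all 36902 tested loci, drawn as grey hexagons by number of loci, with the carotenoid synthesis genes in red and the median of each decile of the loci in orange. The orange line climbs from -0.49 for the dimmest decile to 0.13 for the brightest, and PSY2, ZEP and PSY3 lie near it, while LCYb, PSY1 and LCYe lie above it and ZDS and CRTISO below.

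Brightness moved with the differences on these arrays. PSY1, PSY2, PDS, LCYb, LCYe and ZEP lay in the brightest decile of tested loci, where 66.9% of loci lay above 0, and these 6 are the members that lay above 0. CRTISO was in the ninth decile (median 0.07), ZDS in the seventh (median -0.015) and PSY3 in the dimmest. After quantile normalization LCYb lay at 0.42, PSY1 at 0.15 and LCYe at 0.33, and after cyclic loess at 0.42, 0.25 and 0.32. LCYb, LCYe, PSY1 and PDS stayed above 0, and ZDS and CRTISO below 0, in all 15 alternative settings. The part of brightness in the remaining differences was not tested.

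**Figure D4:**
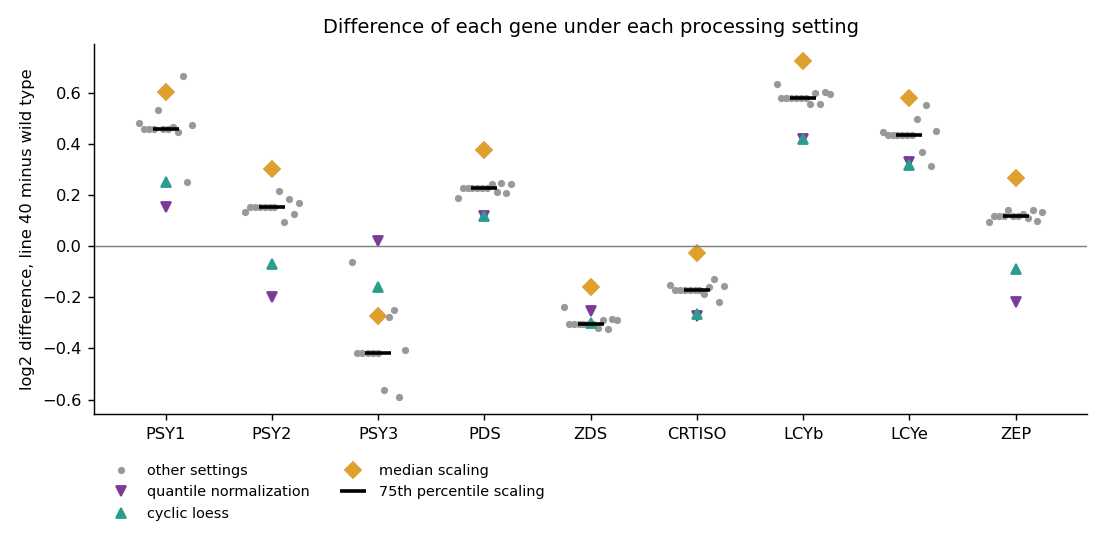
Log2 difference between line 40 and wild type (y axis) of each carotenoid synthesis gene under the 75th percentile scaling (black bar) and each alternative setting (symbols). PSY2, ZEP and PSY3 cross 0 under quantile normalization, and PSY2 and ZEP also under cyclic loess, whereas the other 6 genes keep their side.

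Around these genes lie 3 hand-made lists of the wider pathway. Most of their loci have no annotation in the sources used here, so a locus is named by symbol only where the gene table holds that symbol on the same chromosome, and its place in a list rests on general knowledge. The xanthophyll and isomerase list is meant to hold carotene hydroxylases, the de-epoxidase that runs opposite to ZEP and an isomerase. Of 9 listed and 9 tested loci none passed (limma, 0 of 9, with 4 of 9 at an unadjusted p under 0.05, all higher), 8 lay above 0, and the median was 0.39. Over all tested loci 24.8% reached that unadjusted p (10.1% higher, 14.8% lower), 43.8% lay above 0 and the median was -0.06. That comparison takes no account of brightness. LOC_Os04g48880, LOC_Os04g31040 and LOC_Os10g38940 lie in the brightest decile, where 66.9% of loci lay above 0 and the median was 0.13. The list reaches down to a decile with 42.4% above 0 and a median of -0.08. The part of brightness in the values of this list was not tested. LOC_Os04g48880 had levels of 3.94 ± 0.10 in the wild type and 4.53 ± 0.0033 in line 40 (SD, n = 2 arrays each), a difference of 0.59 (SE 0.15, limma adjusted p = 0.111). LOC_Os04g31040 lay at 0.72 (SE 0.19, adjusted p = 0.122), LOC_Os10g39930 at 0.55 (SE 0.16, adjusted p = 0.138) and LOC_Os10g38940 at 0.55 (SE 0.19, adjusted p = 0.172). The list's median was 0.18 without wild type replicate I and 0.59 without wild type replicate II. With the spread following brightness LOC_Os04g48880 passed (limma adjusted p = 0.0410), as did 5.89% of all tested loci.

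The cleavage list, meant to hold the dioxygenases that cut carotenoids into apocarotenoids and the precursors of abscisic acid and strigolactones, lay on both sides of 0. Probes were found for 8 of 9 listed loci, and all 8 were tested. None passed (0 of 8), and 2 of 8 had an unadjusted p under 0.05, both higher, beside 24.8% of all tested loci (10.1% higher). Above 0 lay 5, beside 43.8% of all tested loci, and the median of the list was 0.08. The sign of that median is unsettled: it was -0.041 after quantile normalization, -0.037 after cyclic loess, 0.23 with median scaling, and -0.022 to 0.18 on leaving out 1 array in turn. NCED3 (LOC_Os03g44380), whose product cuts the xanthophyll precursor of abscisic acid, lay at 0.54 (SE 0.16, adjusted p = 0.146). LOC_Os12g24800 lay at 0.67 (SE 0.20, adjusted p = 0.142) and LOC_Os07g05940 at 0.47 (SE 0.22, adjusted p = 0.268). The latter was 0.21 without wild type replicate I and 0.72 without wild type replicate II. CCD7 (LOC_Os04g46470), of strigolactone synthesis, was dim, with signals of 35.5 and 21.6 in the wild type and 12.4 and 15.6 in line 40, and it entered the test through the wild type, being well above background on 1 of the 2 line 40 arrays. Its difference was -0.97 (SE 0.39, adjusted p = 0.214). It was -0.20 after normexp and -0.40 without wild type replicate I. Without wild type replicate II, where the CCD7 signal was the lower of the 2 in the wild type, the difference was -1.54, so 1 array decides its value.

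The precursor list, meant to hold the plastid isoprenoid route to geranylgeranyl diphosphate, also held no locus past the threshold. Of 13 listed loci 12 were tested, and 0 of 12 were called. At an unadjusted p under 0.05 there were 6 of 12, 4 higher and 2 lower, beside 24.8% of all tested loci (10.1% higher, 14.8% lower). Above 0 lay 8, beside 43.8% of all tested loci, and the median of the list was 0.31. Among the lower loci, LOC_Os06g05100 (-1.08), was dim, with signals of 30.3 and 28.1 in the wild type and 16.6 and 11.1 in line 40. It entered the test through the wild type, being well above background on 1 of the 2 line 40 arrays, and it is named here after its values were seen. LOC_Os07g36190 lay at 0.78 (SE 0.16, adjusted p = 0.0820) and LOC_Os05g33840 at 0.73 (SE 0.16, adjusted p = 0.0903), whereas LOC_Os07g09190 lay at -0.53 (SE 0.14, adjusted p = 0.122). LOC_Os07g39270 lay at 0.59 for its brighter probe (SE 0.16, adjusted p = 0.120) and at 0.10 for its dimmer probe (adjusted p = 0.735 with every probe fitted on its own). The dimmer probe had signals of only 34.9 and 40.1 in the wild type and 36.5 and 42.7 in line 40, so it is a weak check on the brighter one. With the spread following brightness LOC_Os05g33840, LOC_Os07g39270 and LOC_Os07g36190 passed (adjusted p = 0.0314, 0.0476 and 0.0262). LOC_Os05g33840 and LOC_Os07g36190 also passed with median scaling (adjusted p = 0.0407 and 0.0351), and LOC_Os07g36190 after normexp (adjusted p = 0.0295). These settings called more of the 36902 tested loci than the 765 of the main fit. The counts were 2174 with the spread following brightness (5.89%), 2747 with median scaling and 1084 after normexp. In the other direction, LOC_Os07g36190 lay at 0.46 after quantile normalization (adjusted p = 0.176) and 0.57 after cyclic loess (adjusted p = 0.110), and LOC_Os05g33840 at 0.66 and 0.67, with neither past the threshold in either setting.

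**Figure D5:**
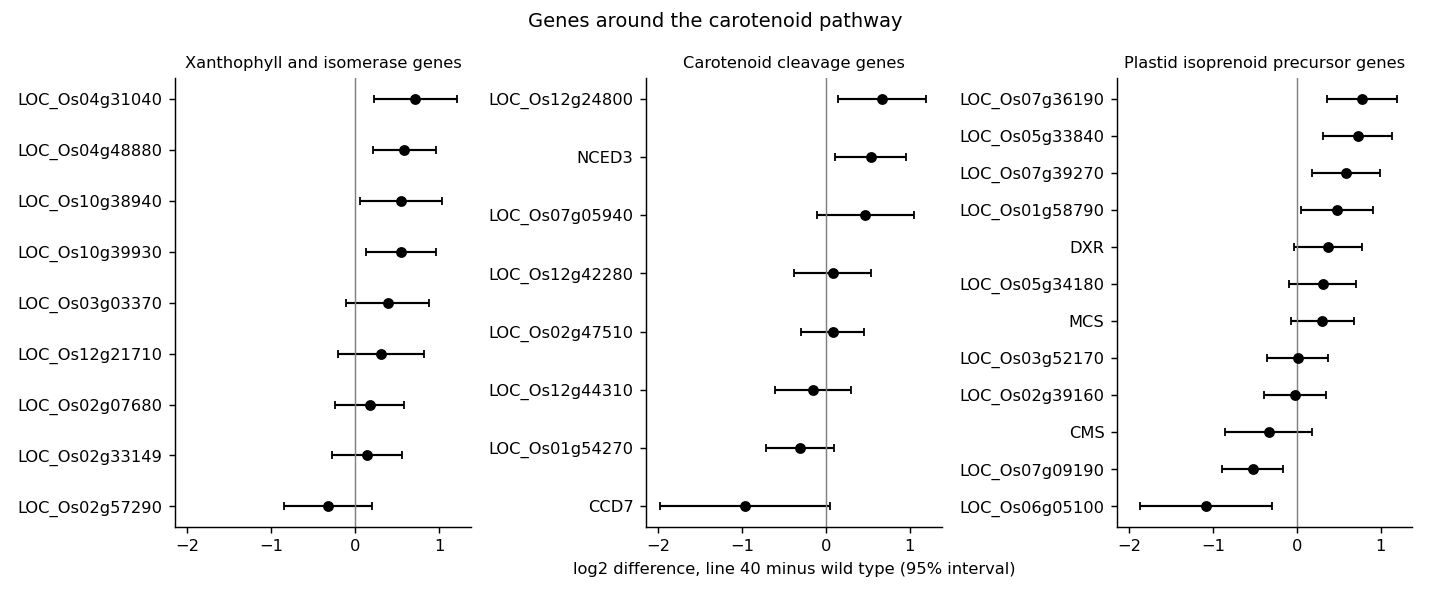
Difference between line 40 and wild type (x axis, log2 units, dots) with 95% intervals from limma (bars) for the tested genes of 3 lists around the carotenoid pathway. Genes of the xanthophyll list lie mostly to the right of 0, from -0.32 for LOC_Os02g57290 to 0.72 for LOC_Os04g31040, while the cleavage and precursor lists spread to both sides; a symbol is shown where the gene table holds it, and the identifier otherwise.

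Markers of green tissue and of root, both of which whole seedlings should hold, were measured on every array. Each of the 6 green and 9 root markers was flagged well above background on every array, and all were tested. The root marker LSI2 was dim, with signals of 26 and 45.6 in the wild type and 43.4 and 29.7 in line 40. Of the green markers 3 of 6 were called higher and none lower, beside 0.927% of all tested loci called higher and 1.15% lower. These were the Rubisco small subunit gene RBCS by 1.44, the listed LOC_Os07g37240 by 1.38 and LOC_Os01g31690 by 1.12 (limma adjusted p = 0.0276, 0.0358 and 0.0409). The uncalled CAB2R lay at 0.18, RCA at 0.09 and CAB1R at -0.08. All 3 calls were lost after quantile normalization (1.13, 1.09 and 0.80), with no filter on dim probes, and without any 1 of wild type replicate I, line 40 replicate I and line 40 replicate II, and those of LOC_Os07g37240 and LOC_Os01g31690 also after cyclic loess. The summed level of the green markers, in multiples of the array's 75th percentile, was 2694 and 2329 in the wild type and 2925 and 2993 in line 40. RCA and CAB2R, neither of them called, gave 86.4% to 94.3% of that sum, so the 3 called markers barely enter it. The root markers had a median difference of -0.10, with 5 of 9 below 0 and none past the threshold. At an unadjusted p under 0.05 there were 4 of 9, 3 higher and 1 lower, beside 24.8% of all tested loci. PIP2-3 lay at 1.19, PIP2-5 at 1.14 and LOC_Os02g44310 at 0.49, whereas the ammonium transporter gene AMT1-2 lay at -1.36. The nitrate transporter gene NRT2.1 lay at -0.80, but its groups overlapped, with levels of -1.37 and -3.09 on the line 40 arrays. The summed level of the root markers was 137 and 159 in the wild type and 222 and 209.6 in line 40, of which the single probe of LOC_Os02g44310 gave 72.6% to 78.7%. Both sums follow their brightest probes and do not stand for their lists. In whole seedlings a different share of a tissue and a different transcript level per cell cannot be told apart, and the part of these markers in the values of the carotenoid genes was not tested.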

How the data were processed

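Total RNA labelled with Cy3 was hybridised to 4 custom Agilent arrays. The spot intensity is on a linear scale, and the processed signal was background-subtracted and detrended by Agilent Feature Extraction 10.7.1.1 with no normalization between arrays, per the file headers. The deposited value table of the series equals that signal at all 62976 spots of each array (ratio 1), and its column medians were 61.8, 74.4, 57.1 and 63.3; its scale is linear and uncentred, and 1-colour signals carry no direction.

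Control spots (1319) and 32 probes with uneven spots were left out, the log2 values of repeat spots were averaged (459 probes), and the 75th percentile over non-control spots was subtracted. Loci entered the test with a probe flagged well above background on each array of 1 group or both, and the brightest such probe stood for the locus. limma 3.58.1 in R 4.3.3 (lmFit, eBayes, two-sided) compared the groups, and the script was tested on simulated data. There it called 0 of 50 loci with a log2 change of 0.5 and 0 of 50 with a change of 1. It called 8 of 50 with a change of 2 and 22 of 50 with a change of 3. Few loci were changed in the simulation, so these rates do not carry over to the measured data. There some smaller differences were called, such as that of RBCS at 1.44. With 2 arrays a group their number limits the precision. The p-values rest on the spread between these arrays drawn to limma's estimate of the spread over all loci. A mean spot signal was not used here: normexp (offset 50) ran on the median spot and background intensity, per the file headers' columns.

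The named genes are all 9 members and, of each neighbouring list, those past the threshold or else the 4 with the smallest adjusted p. Members, lists and tests were chosen with earlier results of these data known. The files give locus identifiers only. Member names come with the locus list and other symbols from hand-made lists. Against the gene table of assembly ASM3414082v1, 23 of 56 listed symbols, 5 of them members, lay on the same chromosome, 2 lay on another and 31 had no entry; symbols of the last 2 kinds are used for members only. The array design rests on IRGSP5, so no coordinates are given. Probe sequences were not used here, so cross-hybridisation between related genes was not checked.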

Additional observations from a re-analysis of the deposited data

How the results depend on the processing

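Every count of calls moved with the processing, while the number of carotenoid synthesis genes called stayed at 0 of 9 except with an intensity trend in the spread, where 1 passed as higher (LCYb, 0.58) among 2174 loci (1257 higher, 917 lower). Normexp gave 758 higher and 326 lower loci. Quantile normalization gave 241 higher and 152 lower (393 in all), turned PSY2 to -0.20, PSY3 to 0.020 and ZEP to -0.22, and put the median of the precursor list at 0.19 and of all loci at -0.018. Cyclic loess gave 288 higher and 254 lower, turned PSY2 to -0.07 and ZEP to -0.090, and put the median of the 9 genes at -0.069 and of all loci at -0.022. Median scaling moved the median of all loci from -0.061 to 0.085, gave 1500 higher and 1247 lower loci (2747), and put the medians of the 9 genes, the xanthophyll list and the precursor list at 0.30, 0.53 and 0.45. With no filter on dim probes 23 loci were called (15 higher, 8 lower), and with loci well above background on all arrays 503 (332 higher, 171 lower). A 75th percentile over distinct probes, chosen after seeing the data, gave 875 loci. Leaving out 1 array in turn, with the same loci tested and the lone array assumed to vary like the other group, gave 194 loci without wild type replicate I to 2431 without wild type replicate II (81 to 585 higher, 113 to 1846 lower) and a median of the xanthophyll list of 0.18 to 0.59. For the 9 genes that median was 0.11 to 0.22. PSY3 was not tested where all arrays had to be well above background. The cause of these shifts was not tested.

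With replicate numbers as a replicate block, 744 loci passed (304 higher, 440 lower) and no carotenoid synthesis gene did; LCYb had an adjusted p of 0.186 and the green marker LOC_Os01g31690 was lost (adjusted p = 0.0666). The labels do not say that a number marks a shared batch, and same-numbered arrays did not deviate together (correlation of deviations over loci -0.073). The alternatives without the filter, with 1 probe per fit and with the mean of a locus's probes called none of the 9 genes. Signal over background limits PSY3, CCD7, LOC_Os06g05100 and the dim probes of ZEP and LOC_Os07g39270.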
